A study of Mus musculus with 8 samples.

Results

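The sites described here are CpG cytosines that lie outside promoters, exons, introns and CpG islands on mouse autosomes, read by reduced representation hydroxymethylation profiling (RRHP). They were taken from the union of 4 count tables by the annotation columns that came with the counts, and a site missing from a table was given 0. Of 1497075 sites in the union, 666491 (44.5%) were intergenic in this sense. Of these, 204383 (30.7%) had at least 10 reads in at least 2 libraries and could be tested, and the other 462108 are described by their levels only.

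The adult oligodendrocyte progenitor cell (OPC, here aOPC) libraries came from brains of Pdgfra-H2BEGFP mice. The adult oligodendrocyte (OL, here aOL) libraries came from brains of Plp-EGFP mice. Both were labelled C57BL/6 and taken at postnatal day 60. For each population 2 RRHP libraries were used here, replicates 2 and 3. Each EGFP reporter marks the cells in which its promoter is active, and GFP-positive living cells were sorted, with DNA and RNA taken from one pellet. The groups follow the sample titles, because the tissue given for the aOL RRHP samples also refers to the Pdgfra reporter. In the RNA titles, the aOL population is named pre-myelinating. Reporter line and population cannot be told apart in this design, and whether a replicate was 1 animal or a pool is not stated in the sources used here.

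RNA of the same pellets was used to check the names. The median over 20 myelin genes was 17.38 and 17.06 in aOPC against 17.40 and 17.40 in aOL. Pdgfra, the OPC receptor whose promoter drives the aOPC reporter, was at 7.54 and 5.47 in aOPC against 4.98 and 1.63 in aOL. Over the 14 of 16 OPC genes listed, the median was 8.75 and 7.13 against 7.08 and 7.22, so the groups overlapped. The RNA therefore did not set the libraries labelled aOPC apart by low myelin transcripts, and aOPC and aOL are used below as the names on the labels. These log2 values look quantile normalised, which holds the most abundant genes at equal values. Medians for other cell types ranged from 7.07 to 8.17 for 8 microglia genes, from 8.92 to 10.20 for 9 astrocyte genes, from 4.46 to 7.42 for 5 neuronal genes and from 4.96 to 9.74 for 3 vascular genes, and their part in the RRHP values was not tested.

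5-Hydroxymethylcytosine (5hmC) is made from 5-methylcytosine by TET enzymes, is abundant in brain DNA, and marks gene bodies and distal regulatory elements of neural genes. RRHP reads it at CCGG. Glucosylated 5hmC blocks cutting by MspI, so that a protected end keeps its adapter and gives reads, while an unprotected end is lost. Each read starts at a CCGG and runs into the MspI fragment beside it, so the strands of 1 CpG are read through separate fragments, and the ends of 1 fragment belong to separate CpGs. Every intergenic site (100%) coincided with a CCGG in GRCm38. Fragment length below is the distance from a site's CCGG to the next CCGG of this reference genome in the direction of the read. Whether the reporter lines carry the same CCGG positions was not tested.

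The sequences on which the values turn are given first, from GRCm38, 5′ to 3′ on the strand of the read, with CCGG in capitals, and the cytosine that was scored is the second C. The first pair gave the most reads of all intergenic sites.
chr6:79307235-79307295, plus strand, site at 79307265: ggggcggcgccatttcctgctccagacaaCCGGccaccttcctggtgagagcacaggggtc
chr8:4577067-4577127, minus strand, site at 4577097: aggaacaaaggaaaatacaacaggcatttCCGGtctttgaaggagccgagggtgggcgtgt
The next is a repeated unit near Gm40363 and Pdia4, shown because 4 copies of it were read.
chr6:47763035-47763095, plus strand, site at 47763065: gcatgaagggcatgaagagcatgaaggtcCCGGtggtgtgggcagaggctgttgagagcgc
Those that follow had reads in one population only, the first of them near Kcna2 in aOL, and those near Ubxn10 and Trmt9b in aOPC.
chr3:107117567-107117627, minus strand, site at 107117597: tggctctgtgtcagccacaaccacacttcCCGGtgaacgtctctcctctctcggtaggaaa
chr4:138709036-138709096, minus strand, site at 138709066: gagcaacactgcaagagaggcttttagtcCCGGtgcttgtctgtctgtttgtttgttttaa
chr8:36376209-36376269, plus strand, site at 36376239: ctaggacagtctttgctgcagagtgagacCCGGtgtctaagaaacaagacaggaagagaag
The last single windows were read in every library but far more in aOPC.
chr14:43406972-43407032, minus strand, site at 43407002: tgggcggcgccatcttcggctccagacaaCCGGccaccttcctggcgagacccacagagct
chr1:186913577-186913637, minus strand, site at 186913607: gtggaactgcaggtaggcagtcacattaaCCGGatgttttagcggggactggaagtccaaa
A whole MspI fragment near Ccr1 is given because both of its ends were read and both were higher in aOL.
chr9:123932985-123933176, plus strand: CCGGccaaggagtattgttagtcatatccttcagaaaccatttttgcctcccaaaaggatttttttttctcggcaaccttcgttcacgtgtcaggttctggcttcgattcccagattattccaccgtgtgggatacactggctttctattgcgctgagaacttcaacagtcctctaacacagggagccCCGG

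Intergenic sites held a similar share of the counts in all 4 libraries. They took 42.02% (Wilson 95% interval 41.99 to 42.06) and 42.99% (42.96 to 43.01) of the counts in aOPC replicates 2 and 3, and 42.37% (42.34 to 42.39) and 42.99% (42.97 to 43.01) in aOL. The means were 42.5% ± 0.686 and 42.7% ± 0.438 (SD, n = 2; exact permutation test, two-sided, p = 1), so the difference was smaller than the spread between replicates, and 2 libraries against 2 cannot give a p under 0.333. Library totals ran from 7113237 to 27057859 counts, and the floor of 3 counts from 0.111 to 0.422 CPM, counts scaled to the library total. Because the reads have no molecular identifiers, these limits describe counting error alone.

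Intergenic sites that were read at all numbered 435947 and 497890 in aOPC against 501068 and 565376 in aOL. The populations did not overlap in this number (ratio 1.14, exact permutation p = 0.333), but they did once every library was thinned to the smallest total, with 435947, 412541, 418427 and 434847 sites in the same order (ratio 1.01, exact permutation p = 1). In all 4 libraries 358965 sites were read, and 139457 were read in a single library. Adjusted over the 8 library measures compared, the exact p-values were at least 0.889.

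Counts were unevenly spread over the sites. The upper 1% of sites (6664) held between 13.0% and 14.4% of the intergenic counts of a library, while the median count of a site that was read lay between 4 and 8. Among tested sites the median level was 1.13 and 1.11 CPM in aOPC against 1.13 and 1.18 CPM in aOL. Across tested intergenic sites the Pearson correlation of log2 levels was 0.866 for the aOL pair and 0.748 for the aOPC pair. aOPC replicate 2 stood apart from the aOL libraries (0.559 and 0.596), further than aOPC replicate 3 did (0.711 and 0.738). It was also the library with the smallest total, and the part of depth in these coefficients was not tested. Sites are not independent replicates, and all of these coefficients share the same libraries.

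Repeats set this compartment apart from gene introns. The scored cytosine lay in soft-masked repeat sequence at 55.3% of intergenic sites, against 31.3% of 412810 intron sites and 2.30% of 82157 exon sites. The mean level per listed intergenic site was 0.631 and 0.645 CPM in aOPC against 0.636 and 0.645 CPM in aOL. In introns it was 0.812, 0.922, 0.942 and 0.886 CPM in the same order. When only non-repeat sites on fragments of 40 to 300 bp were kept, the intergenic level was 1.35, 1.46, 1.38 and 1.35 CPM and the intron level 1.61, 1.88, 1.81 and 1.69 CPM, so intergenic sites were lower than intron sites in each of the 4 libraries. Island sites outside genes, at 0.406, 0.191, 0.166 and 0.214 CPM under the same limits, lay far below both. The order of intergenic below intron and above island sites was thus the same in every library, and it was not tested beyond that.

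Distance to genes was then considered. The median intergenic site lay 43.8 kb from the nearest protein-coding gene of the RefSeq table, 6.81% lay inside the span of such a gene although the annotation columns were empty, and 19.2% lay inside some RefSeq gene of any type. Over all listed sites the level was lower with distance, from between 0.762 and 0.823 CPM within 5 kb of a gene to between 0.402 and 0.462 CPM beyond 500 kb. The share of repeat sites moved with it, from 35.1% to 84.9%. Among non-repeat sites on fragments of 40 to 300 bp the level was nearly flat up to 500 kb, at 1.41, 1.54, 1.46 and 1.39 CPM within 5 kb and 1.34, 1.48, 1.38 and 1.36 CPM between 100 and 500 kb. Beyond 500 kb, where 4534 such sites remained, it was 1.16, 1.10, 0.987 and 1.06 CPM, below every nearer bin in each library. The plot of level against distance shows both versions.

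**Figure D1:**
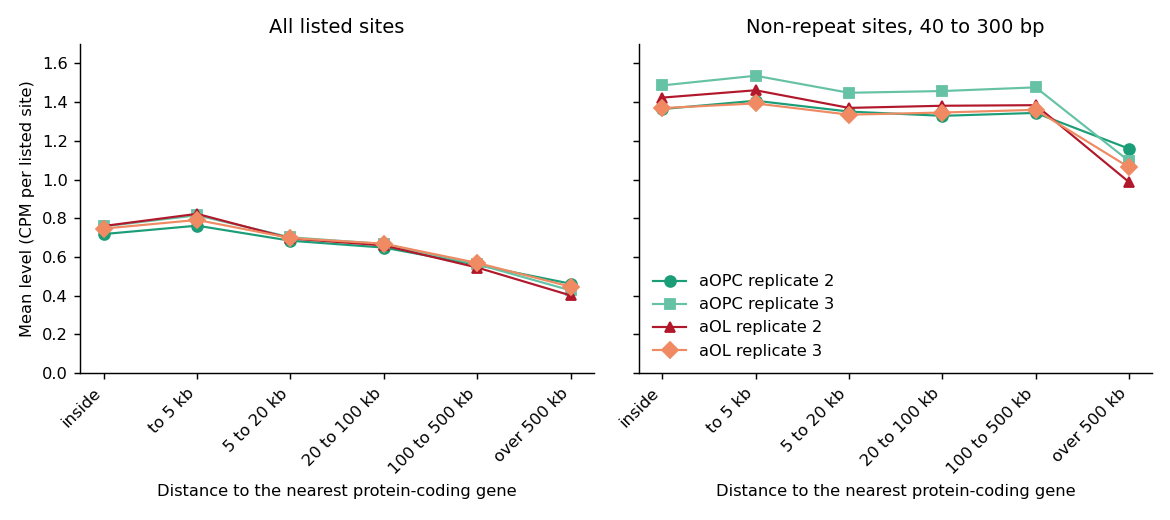
Mean 5hmC level (CPM per listed site, vertical axis) against distance to the nearest protein-coding gene (horizontal axis, 6 bins), with 1 line per library, for all intergenic sites (left) and for non-repeat sites on fragments of 40 to 300 bp (right). On the left the lines lie highest within 5 kb outside a gene and lower in each farther bin, whereas on the right they fall clearly only beyond 500 kb, to between 0.987 and 1.16 CPM.

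The strongest intergenic sites were shared by both populations. The site on chromosome 6 at 79307265, in a repeat 510766 bp from Gm20594, had 1276 and 3957 counts in aOPC against 3515 and 8061 in aOL, which is 205.2 ± 36.6 CPM against 259.3 ± 54.6 CPM (SD, n = 2). The site on chromosome 8 at 4577097, in a repeat 36073 bp from the zinc finger gene Zfp958, had 1355 and 2828 against 2278 and 8968 counts, so its high aOL mean rested on replicate 3. No difference between populations was detected at either (log2 fold changes of 0.24 ± 0.22 and 0.31 ± 0.32, standard error; edgeR adjusted p = 0.811 and 0.839), and without aOL replicate 3 both estimates turned below 0, to -0.02 and -0.46.

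These single sites were read far above their surroundings. The other strand of the CpG at 79307265 had 2, 4, 5 and 5 counts in aOPC and aOL, and the far end of its 83 bp fragment had 4, 8, 7 and 13. At 4577097 the other strand had 0, 0, 1 and 3 counts. The site on chromosome 14 at 43407002 shares 48 of 61 bases with that at 79307265, compared position by position, and 12 CpGs lay within 100 bases of it, against 11 there. Near Gm40363 and Pdia4, 4 plus-strand sites on chromosome 6 (47739680, 47748296, 47763065 and 47778047) had identical 61-base windows, and their counts were nearly equal. The third strongest site, at 47763065, had 541 and 1618 against 1411 and 2030 (log2 fold change -0.17 ± 0.22, edgeR adjusted p = 0.871), and the 4 copies ranged from 496 to 559 in aOPC replicate 2 and from 1976 to 2107 in aOL replicate 3. How reads that match several copies were placed is not given in the sources used here, so these counts cannot be assigned to one copy. The first 50 bases after the cut were shared with at least 1 other listed site at 26 of the 100 strongest sites and at 39.95% of all intergenic sites.

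The level of intergenic sites varied with fragment length. Sites on fragments over 100 and up to 200 bp averaged 1.06, 1.11, 1.03 and 1.05 CPM in the 4 libraries (aOPC, then aOL), and those on fragments over 1000 bp 0.147, 0.157, 0.168 and 0.165 CPM. Fragments of 40 to 300 bp carried 50.3% of the sites and between 79.9% and 84.3% of the counts. Over 350 and up to 400 bp the populations separated, with 0.244 and 0.208 CPM in aOPC against 0.524 and 0.453 CPM in aOL, and over 400 and up to 500 bp the levels were 0.0510 and 0.0498 against 0.146 and 0.115 CPM. The share of intergenic counts from fragments over 350 and up to 500 bp was 1.999% and 1.71% in aOPC against 4.52% and 3.77% in aOL. Their means stood in a ratio of 2.24 (two-sided exact permutation p = 0.333, the smallest possible). Introns showed the same split, at 2.22% and 1.76% against 5.29% and 4.49% (ratio 2.46, exact permutation p = 0.333). In both classes each aOL library lay above each aOPC library.

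**Figure D2:**
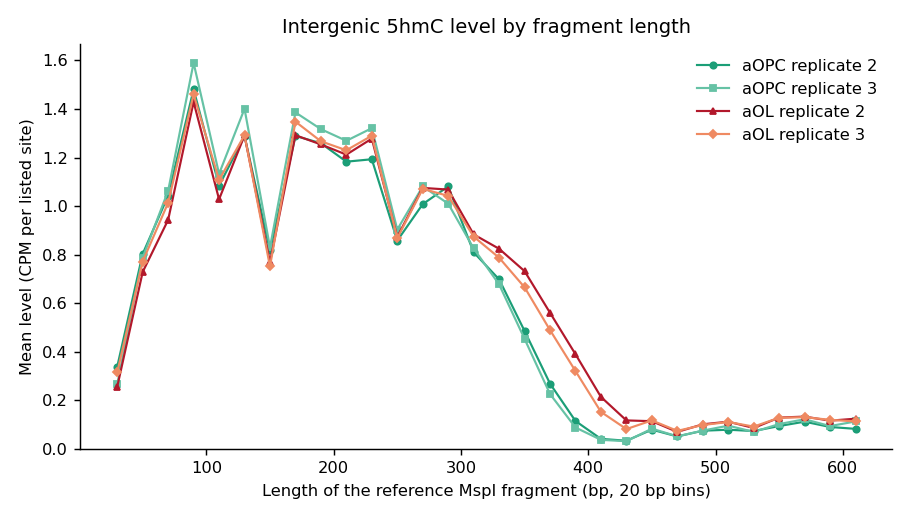
Mean 5hmC level (CPM per listed site, vertical axis) of intergenic sites against the length of the reference MspI fragment (horizontal axis, 20 bp bins), with 1 line per library. The 4 lines run together up to 300 bp and part between 340 and 420 bp, where both aOL libraries lie above both aOPC libraries.

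Hydroxymethylation of single intergenic sites was compared between populations with edgeR, fitted on all 443062 sites of the series that passed the filter. It was higher in aOL at 2194 intergenic sites (1.07% of those tested), where all tested sites gave 1.21%, and lower at 2231 (1.09%), where all tested sites gave 1.08%. The shares among intergenic sites were thus near the background in both directions. With no adjustment, p was under 0.05 at 9525 higher and 8918 lower sites. Most called sites were near absence in one population. Of the higher sites, 1749 (79.7%) stayed within the floor of 3 counts in each aOPC library, as did 1647 of the lower sites (73.8%) in each aOL library. A requirement of 10 reads in every library during testing left 54 higher and 135 lower sites of 75162 tested. Single libraries moved these counts. Leaving out aOPC replicate 2 gave 2525 higher and 440 lower sites, and leaving out aOPC replicate 3 gave 3949 and 7067. Leaving out aOL replicate 3 gave 72 and 1997, and leaving out aOL replicate 2 left 1952 lower sites and 4.92% of the called sites higher.

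Higher and lower sites differed in fragment length. Of the higher sites, 1960 (89.3%) were on fragments over 350 bp, whereas 1983 of the lower sites (88.9%) were on fragments of 40 to 300 bp. The latter held 163987 of the 204383 tested sites, so the lower sites lay near the distribution of all tested sites and the higher sites did not. On fragments over 350 and up to 500 bp, 856 sites were higher (10.3%, background over all sites of these lengths 11.7%) and 27 lower (0.324%, background 0.271%) of 8327 tested, and the median log2 fold change over the tested intergenic sites there was 1.29. On fragments over 500 bp, 1104 were higher (8.12%, background 10.9%) and 40 lower (0.294%, background 0.264%) of 13605, with a median of -0.04 over the tested intergenic sites. Within 40 to 300 bp, 150 intergenic sites were higher (0.0915%, background 0.14%) and 1983 lower (1.21%, background 1.19%) of 163987. The direction of the whole set therefore depended on fragment length, with 49.6% of called sites higher over all lengths and 7.03% within 40 to 300 bp. The part of library construction in this split was not tested. A fit with separate scaling for each length bin, chosen after seeing these values, gave 1479 higher and 2180 lower sites.

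**Figure D3:**
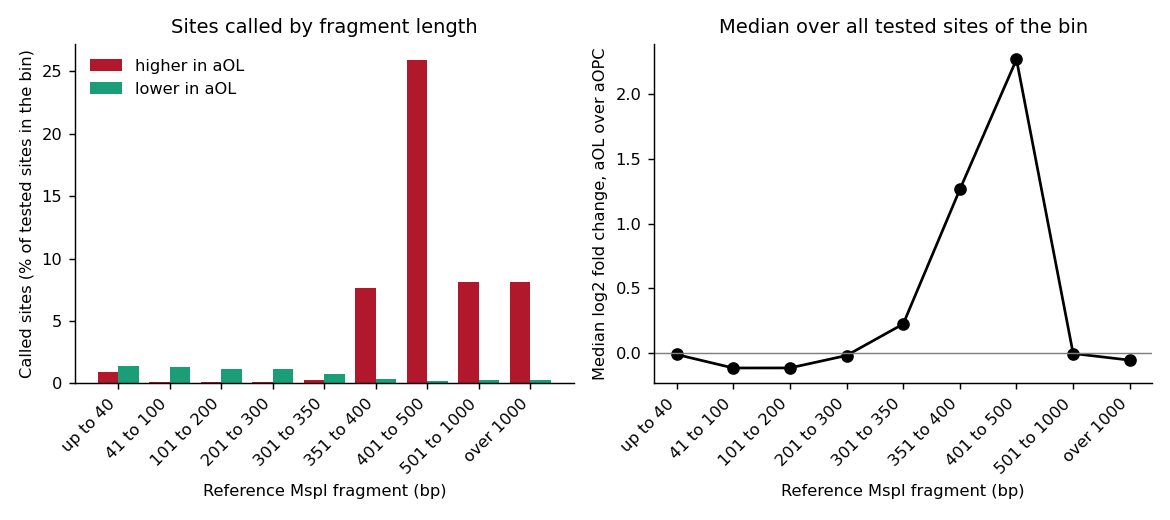
Left, percentage of tested intergenic sites called higher (red) or lower (green) in aOL in each bin of fragment length; right, median log2 fold change over all tested sites of the bin. Calls above 350 bp are nearly all higher, up to 25.9% of tested sites between 400 and 500 bp, where the median is 2.27. Lower calls lie between 1.17% and 1.43% in the bins up to 300 bp.

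The other strand of the CpG and the far end of the fragment were then read beside each called site. Of the 1104 higher sites on fragments over 500 bp, 486 had the other strand of the same CpG listed and 210 had it tested. Of those 210, 14 were higher (6.67%) and 10 lower (4.76%), where other strands of sites not called gave 1.19% and 0.630%, and the median log2 fold change was -0.06. The other strands averaged 0.886 and 0.982 CPM in aOPC against 1.13 and 1.13 CPM in aOL, while the sites themselves averaged 0.0674 and 0.0799 against 2.27 and 2.12 CPM. Of the 486 listed other strands, 243 were read in all 4 libraries. Few far ends were listed (227), and 20 of the 32 tested (62.5%) were higher too. A far end has the fragment length of its site, and 8.12% of all tested intergenic sites over 500 bp were higher. Far ends of sites not called, on fragments of all lengths, gave 252 of 114715 (0.220%).

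Lower sites showed another profile. Of the 1983 lower sites on fragments of 40 to 300 bp, 989 had the far end of the fragment tested, and 494 of these (49.95%) were lower and 4 higher, against 487 lower (0.473%) of 102928 far ends of sites not called on such fragments. Their far ends averaged 1.68 and 1.77 CPM in aOPC against 0.546 and 0.527 CPM in aOL. The other strand of the CpG was tested for 335, of which 137 were lower (40.9%) and 12 higher (3.58%), with a median of -0.71, where sites not called on such fragments gave 0.620% and 1.16%. These values are descriptions, since the groups were formed from the same counts and the ends of 1 fragment share molecules. Over all intergenic pairs and not only called ones, the correlation of log2 counts was between 0.459 and 0.534 for the ends of 246278 fragments and between 0.0412 and 0.114 for the strands of 174189 CpGs. For the 44096 CpGs with fragments of 40 to 300 bp on both sides, the strands correlated at between 0.240 and 0.446.

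**Figure D4:**
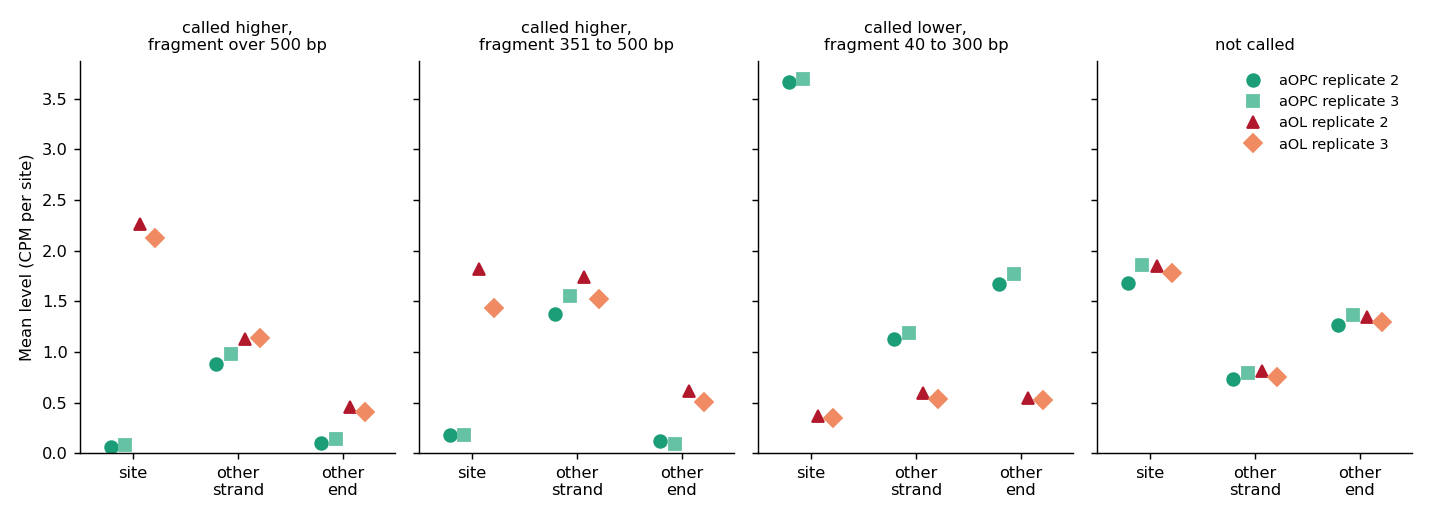
Mean level (CPM per site, vertical axis) of intergenic sites, of the other strand of the same CpG and of the other end of the same MspI fragment, in 4 groups of sites, with 1 symbol per library; the level of the site is over sites whose other strand is listed. For sites called higher on fragments over 500 bp the other strand lies between 0.886 and 1.13 CPM in all libraries, and for sites called lower the far end is lower in aOL as well.

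Called sites were crowded in parts of the genome. The share of tested intergenic sites that were lower ranged from 0.0337% on chromosome 2 (5 of 14827) to 3.16% on chromosome 8 (390 of 12329), and chromosomes 7, 12 and 14 followed at 2.86%, 2.46% and 2.05%. Among 498 bins of 5 Mb with at least 50 tested sites, 271 held no lower site. The 50 bins with the highest lower rate held 9.92% of the tested sites, 66.5% of the lower sites and 51.8% of the higher sites on fragments over 500 bp, but 24.5% of the higher sites on shorter fragments. The bin with the most lower sites was on chromosome 4 from 140000001 to 145000000, with 83 lower and 40 higher of 831 tested. On chromosome 8 from 35000001 to 40000000, 55 of 344 (16.0%) were lower and 24 higher, and on chromosome 14 from 40000001 to 45000000, 55 of 406 were lower and 2 higher. Whether these blocks differ in sequence between the reporter lines was not tested.

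Among higher sites with at least 50 reads in both aOL libraries (404 sites), the 5 largest differences had 0 counts in both aOPC libraries and lay on fragments of 1229 to 3605 bp. The site 2592 bp from Kcna2, a potassium channel gene, had 0 and 0 counts in aOPC against 241 and 339 in aOL. Its aOL mean of 13.8 ± 1.84 CPM (SD over 2 libraries) was at least 46.3-fold higher against a floor of 3 counts per library. This site and the next 4 passed the read filter through the aOL libraries alone, so that their values are a description and no p is given. The site on chromosome 7 at 68608574, 128420 bp from Arrdc4, had 170 and 268 counts in aOL, and that on chromosome 12 at 26936549, 397719 bp from the transcription factor gene Sox11, had 155 and 227. Sites on chromosome 16 at 23679521 (65299 bp from Rtp4, with 133 and 239) and on chromosome 17 at 34636838 (within the RefSeq span of Ppt2, with 141 and 206) completed the set. All were at least 27.6-fold higher. Sox11 transcripts, which mark early lineage stages, were at 8.85 and 6.96 log2 units in aOPC against 5.66 and 4.46 in aOL. Those of Kcna2 were at 12.23 and 11.14 against 10.71 and 10.79, and those of Rtp4 at 7.03 and 6.71 against 6.16 and 6.29. For Arrdc4 they were at 7.13 and 6.29 against 7.05 and 6.73, and for Ppt2 at 10.1 and 11.13 against 10.3 and 10.24. None of these differences was tested.

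The largest decreases, among 188 lower sites with at least 50 reads in both aOPC libraries, had 0 counts in both aOL libraries and lay on fragments of 86 to 209 bp. They passed the read filter through the aOPC libraries alone and are described with no p. The site 771 bp from Ubxn10 had 118 and 259 counts in aOPC (15.9 ± 1.03 CPM), at least 106.0-fold lower in aOL, and the far end of its 86 bp fragment had 16 and 48 against 0 and 0. The site 81246 bp from Trmt9b had 69 and 223 counts against 0 and 0. Its other strand followed, with 61 and 202 against 0 and 1, while the far end of its fragment, with 123 and 285 against 122 and 195, was lower by less (log2 fold change -1.30, edgeR adjusted p = 0.00964). On chromosome 8 at 108093695, 185616 bp from the transcription factor gene Zfhx3, the site had 97 and 159 counts against 0 and 0. Here the other strand was read alike in both, at 19 and 41 against 39 and 63. The sites near Aspg (chromosome 12, 112134046) and Ubr4 (chromosome 4, 139505624) had 83 and 172 and 59 and 224 counts in aOPC and none in aOL. Loss of reads at one cytosine thus came with loss on the other strand near Trmt9b and without it near Zfhx3.

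Sites that reached 10 reads in all 4 libraries bear on differences above the floor. Of the called sites, 52 higher and 266 lower met this limit. The 2 largest increases were the ends of the 188 bp fragment near Ccr1, a chemokine receptor gene 29140 bp away. The plus-strand end had 71 and 123 counts in aOPC against 1666 and 4066 in aOL (8.58 ± 1.98 and 127.4 ± 32.3 CPM), a log2 fold change of 3.80 ± 0.31 (edgeR adjusted p = 6.53e-06). The minus-strand end had 11 and 15 against 129 and 223 counts (log2 fold change 2.79 ± 0.37, edgeR adjusted p = 2.92e-04). Next were the site near Nkd1, a Wnt pathway inhibitor, with 10 and 11 against 122 and 148 counts, one near Gm21119 with 16 and 44 against 277 and 402 on a 366 bp fragment, and one near Rd3 with 13 and 10 against 106 and 167. Scaling within length bins took the log2 fold change near Gm21119 from 2.63 to 1.40 (edgeR adjusted p = 0.0183). At Nkd1 the other strand rose too, from 11 and 20 to 115 and 206 counts, while the far end of the fragment had 4 and 12 against 6 and 24 and was not called (-0.03 on the log2 scale, edgeR adjusted p = 0.995). At Rd3 the other strand had 1, 3, 5 and 4 counts and could not be tested.

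Decreases above the floor were led by the site on chromosome 14 at 43407002, within Gm21154, with 97 and 430 counts in aOPC against 12 and 35 in aOL (19.4 ± 8.12 and 1.02 ± 0.382 CPM). Its log2 fold change was -4.27 ± 0.36 (edgeR adjusted p = 7.45e-06). The site on chromosome 1 at 186913607, 53809 bp from D1Pas1, had 108 and 270 against 16 and 27 counts, and its far end, with 45 and 163 against 34 and 50, was lower as well (log2 fold change -2.12, edgeR adjusted p = 5.10e-04). The far ends near Micos10 and Mdga1 were tested and not called (-0.28 and 0.25 on the log2 scale, edgeR adjusted p = 0.864 and 0.922), and that near Ccdc85a was lower, with 13 and 44 against 0 and 0 counts. The sites near Micos10, Ccdc85a and Mdga1 themselves fell by 3.78, 3.57 and 3.23 on the log2 scale. Each aOL library lay below each aOPC library in CPM at all 5 of these sites. They were chosen as the largest called decreases, so this is no further support.

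Called sites were gathered into fixed 2 kb windows with at least 2 called intergenic sites in one direction and none in the other. Of 55211 windows with at least 2 tested sites, 79 (0.143%) were increased in aOL and 308 (0.558%) decreased, where windows over all sites gave 0.226% and 0.628%, and 66 held both directions. Without aOPC replicate 2 the direction turned, with 113 increased and 29 decreased windows, and 3 windows were increased when either of the aOL libraries was left out. In 63 of the increased windows every called site was on a fragment over 350 bp, and in 274 of the decreased windows every called site was on one of 40 to 300 bp. The most called sites in 1 such window were 5 higher or 7 lower ones.

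The window on chromosome 9 from 123932001 to 123934000, near Ccr1, held the most higher sites. All 5 tested sites were higher, with 120 and 190 counts in aOPC against 2194 and 4857 in aOL in all. Across both strands of the CpGs at either end of the 188 bp fragment shown above, all 4 sites were higher, with log2 fold changes of 3.80, 1.82 and 2.79 at 3 of them and 0 and 0 counts against 61 and 113 at the other, the minus strand at 123932987. A window on chromosome 15 from 49304001, 512353 bp from Csmd3, had 4 higher sites, with 7 and 2 counts against 131 and 191, on fragments of 34 to 83 bp. One on chromosome 3 from 130804001, near the ribosomal protein gene Rpl34, had 3 higher sites, each on a fragment of at least 599 bp, while its 4 sites on fragments of 76 or 78 bp were not called.

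Among decreased windows, that on chromosome 14 from 48084001, 34839 bp from the ubiquitin ligase gene Peli2, held a tandem repeat in which CCGG recurs every 34 bp. Of its 15 tested sites 7 were lower. The repeat units at 48085564 and 48085836 had 26 and 58 and 10 and 32 counts in aOPC against 0 and 0 and 0 and 1 in aOL. Those at 48085700 and 48085938 had 13 and 40 and 10 and 35 against 58 and 106 and 56 and 108, and were not called. Lower units thus lay beside units for which no difference was called. On chromosome 12 from 112394001, 93556 bp from A530016L24Rik, 7 of 9 sites were lower, with 181 and 411 counts in aOPC against 1 and 1 in aOL in all. On that window's 55 bp fragment, however, the end at 112395630 kept 42 and 77 counts in aOL beside 34 and 92 in aOPC, whereas the end at 112395686 had 20 and 51 against 0 and 0. The window on chromosome 1 from 182136001, near Srp9, had 5 lower sites, with 88 and 258 counts against 1 and 3.

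To relate intergenic 5hmC to genes, the counts of sites within 100 kb were summed for the nearest protein-coding gene, giving 14794 tested neighbourhoods with a median of 18 sites. In aOL, 81 were higher (0.548%) and 279 lower (1.89%), and 549 and 948 had an unadjusted p under 0.05. From fragments of 40 to 300 bp alone, an alternative chosen after seeing the data, 14 (0.101%) were higher and 298 (2.14%) lower of 13911. Of the 81 higher neighbourhoods, 33 could still be tested on these fragments and 13 were called, against 229 of 271 for the lower ones. Without aOPC replicate 3 the numbers were 831 and 1042, and with only sites of at least 3 reads in every library they were 11 and 11.

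Among neighbourhoods that reached 50 reads in each library of the group with more, the 5 largest increases were at Krtap19-1 (0 and 0 counts in aOPC, 103 and 164 in aOL), Aurkaip1 (0 and 0 against 56 and 96), Klk9 (1 and 0 against 112 and 177), Rln3 (0 and 2 against 128 and 195) and Lactbl1 (2 and 0 against 131 and 164). They rested on between 1 and 6 sites, and the strongest site of each lay on a fragment of 407 to 1947 bp. The 5 largest decreases were at Zfp420, a zinc finger gene (77 and 195 counts in aOPC, 0 and 1 in aOL), Cnga1 (52 and 74 against 0 and 2), the histone gene H2bu2 (59 and 111 against 2 and 2), ccdc198 (82 and 215 against 4 and 5) and Mau2, a cohesin loader gene (121 and 298 against 15 and 15). They rested on 4 to 13 sites, with 4 sites called lower at ccdc198 and at Mau2. They were lower also on fragments of 40 to 300 bp, which hold part of the same reads. All were chosen as the largest decreases, and all but Mau2 had at most 5 counts in each aOL library. Their values are therefore a description and no p is given. With only sites of 3 reads in every library, Mau2 was at -1.33 on the log2 scale and no longer called (edgeR adjusted p = 0.666). Zfp420 transcripts were at 9.77 and 9.81 log2 units in aOPC against 10.36 and 9.99 in aOL, and those of Mau2 at 13.52 and 12.58 against 13.09 and 13.22.

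Lists of genes of the oligodendrocyte lineage and of other brain cells were then followed. Their counts of calls are to be read against the shares over all neighbourhoods, 0.548% higher and 1.89% lower. None of the 20 tested neighbourhoods of 22 lineage transcription factor genes was called, and their median log2 fold change was 0.02, against 0.00 over all neighbourhoods. At Olig1 and Olig2, the factors that specify the lineage, the values were 0.01 ± 0.10 and -0.13 ± 0.10, with 762 and 1844 against 1885 and 2821 counts at Olig1 from 97 sites. Sox8 and Sox9, transcription factor genes of glia, were at -0.02 ± 0.12 and 0.02 ± 0.10, and Zfp536, with the most counts of the list (2404 and 6688 against 6644 and 10615), at 0.11 ± 0.09. Nkx6-2, a factor of myelinating cells, had the lowest value of the list, -0.68 ± 0.16 (edgeR adjusted p = 0.0556).

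Neighbourhoods of progenitor genes gave no call either (0 of 14 tested of 16, median 0.00; 0.548% and 1.89% of all neighbourhoods were called higher and lower). Pdgfra, with 282 and 1060 counts in aOPC against 1035 and 1636 in aOL from 56 sites, had a log2 fold change of 0.25 ± 0.16 (edgeR adjusted p = 0.709). Cspg4, which encodes NG2, was at 0.26 ± 0.24, and Bcan, which encodes the matrix protein brevican, at 0.01 ± 0.13. The widest values of the list were those of Tnr (-0.83 ± 0.30) and Ncan (-0.77 ± 0.28), matrix genes of few sites (14 and 3). At Ncan 1 site was called higher and 2 lower, and the higher site, on a 2664 bp fragment, held all of the counts in aOL (0 and 0 against 55 and 76). The others therefore had none there. On fragments of 40 to 300 bp alone Ncan was the 1 neighbourhood of the list called lower. That restriction leaves out the 2664 bp fragment and with it every aOL count, so no p is given.

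Of 17 tested neighbourhoods of 20 myelin genes, 2 were lower in aOL and none higher (median -0.04), where 1.89% and 0.548% of all neighbourhoods were. They were Mag, a myelin adhesion protein gene, and Mog, a surface protein gene of the outer myelin layer. Mag had 18 and 32 counts in aOPC against 3 and 11 in aOL (-2.74 ± 0.49 on the log2 scale). It passed the read filter through the aOPC libraries alone and none of its sites could be tested singly, so no p is given. Mog had 18 and 78 against 9 and 22 (-2.41 ± 0.41, edgeR adjusted p = 0.00873). The libraries did not overlap in CPM at either gene, but both are named because they were called, so this is no further support. Both rest on few reads from 7 and 5 sites, and 1 site held 83.5% of the counts at Mog. Without aOL replicate 2 Mag was no longer called (log2 fold change -2.41). Their transcripts were at 18.50 and 18.27 against 18.39 and 18.39 log2 units for Mag and at 17.59 and 17.76 against 16.89 and 17.16 for Mog. Mbp, with 22 sites, was at -0.04 ± 0.16, and Mobp, with 63 sites, at -0.42 ± 0.11 (edgeR adjusted p = 0.0761). Of the 17 tested, 8 were above 0 and none of these was called, led by Fa2h, a lipid hydroxylase gene, at 0.64 (edgeR adjusted p = 0.397) and Cldn11, a tight junction gene of myelin, at 0.44 (0.559).

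The neighbourhood of Tubb3, a tubulin gene of neurons and young cells of the lineage, was the called increase among the lists, and 1 of 8 tested neuronal neighbourhoods (of 9; list median 0.02). Its 63 sites, 1218 to 9676 bp from the gene on chromosome 8, had 420 and 918 counts in aOPC against 1498 and 2642 in aOL, which is 56.3 ± 3.84 CPM against 95.9 ± 2.52 CPM. The log2 fold change was 0.74 ± 0.11 (edgeR adjusted p = 0.00373), and 0.80 on fragments of 40 to 300 bp (edgeR adjusted p = 0.00216). No single site there was called, yet 34 of the 38 tested sites had a log2 fold change above 0, with a median of 0.76, and the strongest site held 5.20% of the counts. The increase was therefore spread over the neighbourhood, unlike those carried by 1 site. Tubb3 transcripts were at 11.84 and 12.41 in aOPC against 11.57 and 11.76 in aOL.

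Patterning transcription factor genes, which carry regional identity and are kept silent in most adult cells, had a median of -0.10, and 1 of 20 tested neighbourhoods (of 22 genes) was called, where 1.89% of all neighbourhoods were lower. Irx3, with 136 sites, was lower in aOL, at 783 and 1854 counts in aOPC against 1325 and 2247 in aOL (-0.43 ± 0.10 on the log2 scale, edgeR adjusted p = 0.0441). Its 53 tested sites comprised 6 higher and 10 lower ones, and the call was lost under 8 alternatives: RLE size factors (edgeR adjusted p = 0.0503), library totals (0.107), the replicate block (0.178), sites within 20 kb (0.468), sites with 3 reads in every library (0.853), and without aOPC replicate 2 (0.0516), aOL replicate 2 (0.330) or aOL replicate 3 (0.380). It was kept with DESeq2 (adjusted p = 0.0471) and on fragments of 40 to 300 bp (log2 fold change -0.78, edgeR adjusted p = 0.00145). The neighbourhood of Cx3cr1, a receptor gene of microglia, was lower with 33 and 109 against 40 and 45 counts (-1.49 ± 0.32, edgeR adjusted p = 0.0339), 1 of 8 tested (of 9 genes) in the microglia list, and the call was lost without aOL replicate 3 (edgeR adjusted p = 0.444), on fragments of 40 to 300 bp (0.0734), with DESeq2 (0.0613), with the replicate block (0.0629) and with only sites of 3 reads in every library (0.853), where the log2 fold change was -0.57. No neighbourhood was called among the 7 astrocyte genes (median -0.05) and 8 vascular genes (median 0.01) tested, of 9 in each list, where 0.548% and 1.89% of all neighbourhoods were higher and lower.

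**Figure D5:**
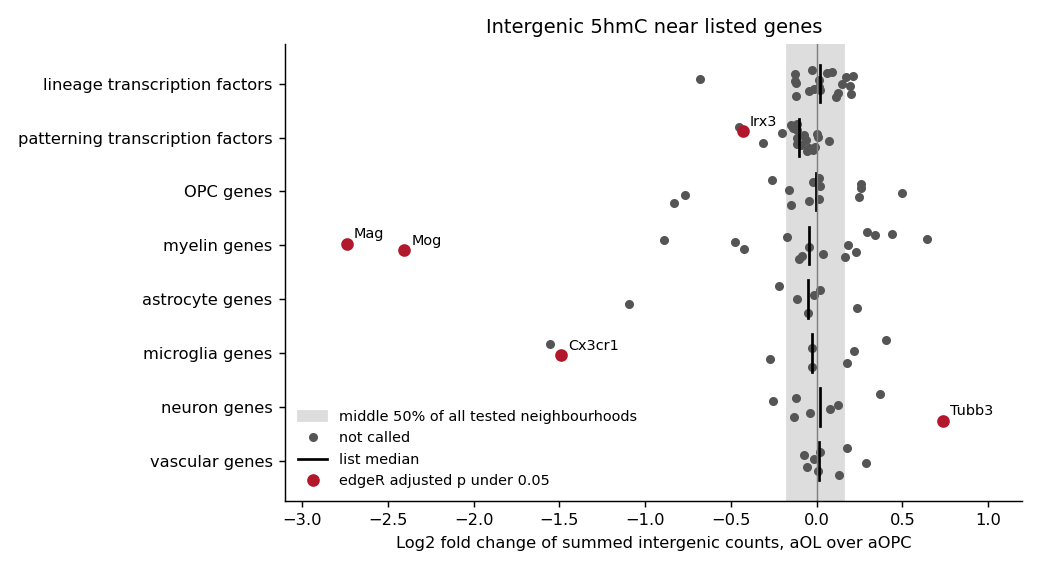
Log2 fold change (aOL over aOPC, horizontal axis) of intergenic counts summed over gene neighbourhoods, with 1 point per gene of 8 lists, red and named where called by edgeR; black bars are list medians and the grey band holds the middle 50% of all tested neighbourhoods (-0.17 to 0.16). List medians lie between -0.10 and 0.02, and 5 genes are called, Tubb3 higher and Mag, Mog, Cx3cr1 and Irx3 lower.

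The level of intergenic 5hmC around genes was compared per site over 4135 genes with at least 10 non-repeat sites on fragments of 40 to 300 bp, where the median gene had 1.28, 1.41, 1.34 and 1.31 CPM per site in the 4 libraries. Of 17 patterning genes 1 lay above the median gene, with list medians of 0.931 and 0.878 CPM in aOPC against 0.762 and 0.739 CPM in aOL. Of 15 lineage factor genes 8 lay above it (1.24, 1.39, 1.42 and 1.37 CPM), Zfp536 at percentile 91.6 and Olig1 at percentile 67.5. Pdgfra, at percentile 25.3, was below the median gene. The highest levels were at Gm40363 and Pdia4, which hold the copies described above, and at Ccr1 through aOL only (1.82 and 1.23 against 12.7 and 16.5 CPM). Across 2256 genes also listed in the RNA files, the Spearman correlation of this level with the transcript level lay between 0.0872 and 0.118 in the 4 libraries, a description across genes that share libraries.

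Short sequence motifs were counted in the sequence within 100 bases of each site, on both strands. CAGCTG, an E-box that bHLH factors such as OLIG2 bind, was present around 9.93% of tested sites, 10.7% of higher and 10.7% of lower sites, and 9.61% of all sites of the series. ACAAAG, the core bound by SOX factors, was present around 14.5%, 15.3% and 15.5% (13.2% of all sites), and ACAATG around 9.91%, 9.89% and 10.2% (8.68%). TGANTCA, the AP-1 motif, was around 5.36%, 6.93% and 4.75% (3.97%), and the E-box CATATG around 6.57%, 3.69% and 4.98% (5.64%). The NFI palindrome occurred around 0.0122% of tested sites and around no called site. No motif contains another, though matches may overlap, and a match is a description of the sequence only.

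A satellite-like pile-up on chromosome 2, from 98660747 to 98666504 and left out above, comprised 7 sites at CCGG, of which 6 were tested and none called. They held 201068 and 200265 counts in aOPC against 142522 and 394014 in aOL, and 1 minus-strand site at 98666504 held 164523, 163436, 113689 and 323765 of these.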

How the data were processed

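RRHP libraries were made from sorted cells with a commercial kit, and per the study's methods the authors mapped reads to mm10 (GRCm38). The deposited values are raw counts per CpG site and strand with the authors' promoter, exon, intron and CpG island columns. Aligner, duplicate handling and site filters are not given in the sources used here. The tables of equal replicate number list the same sites. The deposited RNA values are log2 levels per gene symbol, for which the submitters' processing notes name BWA and DESeq2 1.2.5. They were read as values only.

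Sites that reached 10 reads in 2 or more libraries entered edgeR 4.0.16 (quasi-likelihood, TMM on library totals, population as the only term; Benjamini-Hochberg adjusted p under 0.05) on the whole table, after a check on simulated data. DESeq2 1.42.0 was an alternative, and fits restricted to fragments of 40 to 300 bp or scaled within length bins were added after the data were seen. CPM refer to the whole library total. Repeats, fragments and sequences came from the GRCm38.p6 FASTA, genes from RefSeq. Totals were 7113237, 17121440, 15923775 and 27057859 counts. Replicate numbers do not pair animals. Named sites were the 3 strongest and the 5 largest differences each way above read minimums; named windows the 3 with most called sites each way; named neighbourhoods the 5 largest each way and the called list members. Other list genes were named after their values were seen. Members, lists and tests were chosen with earlier results of these data known. The methods call the replicates biological without giving the animals in each, and p-values measure only the spread between these libraries. Scripts ran under R 4.3.3 and Python 3.11.15.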

Additional observations from a re-analysis of the deposited data

Results flagged for a closer look

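The satellite-like pile-up on chromosome 2, kept out of the comparisons above, held 2.827% of all counts in aOPC replicate 2 and 1.17% in aOPC replicate 3, beside 0.895% in aOL replicate 2 and 1.456% in aOL replicate 3. It drew attention because these reads lie outside the sites compared and above the floor of 3 counts. Its share was highest in aOPC replicate 2, the library with the fewest counts, and the populations overlapped (exact permutation p = 0.667). The cause was not tested.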

How the results depend on the processing

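With the pile-up included the ratio of the intergenic share was 0.985, and thinning took the ratio of covered sites to 1.006. Called sites (higher, lower) were 1259 and 896 with 20 reads in 2 libraries, 54 and 135 with 10 reads in every library, and 4254 and 6202 with no filter. DESeq2 called 954 higher sites and 20 increased windows. On fragments of 40 to 300 bp, 111 sites and 14 neighbourhoods were higher and 7 windows increased, and scaling within length bins gave 43. With 10 reads in every library 2 windows increased and 8 decreased, and 7 and 49 held 3 called sites. Neighbourhoods numbered 196 and 496 with no filter and 11 and 11 with 3 reads in every library. Leaving out 1 library at a time gave 72 to 3949 higher and 440 to 7067 lower sites, 3 to 119 increased and 29 to 435 decreased windows, and 59 to 831 higher and 200 to 1042 lower neighbourhoods. A group left with 1 library was assumed to vary like the other. Without aOL replicate 3 the strongest sites on chromosomes 6 and 8 turned to -0.021 and -0.464, against 0.512 and 0.847 without aOL replicate 2. The causes were not tested. Other settings kept the direction of 178 site values and 165 neighbourhood values and their side of the threshold, while 15 neighbourhood values, of Irx3, Cx3cr1, Mag and Mau2, missed it. The share of higher calls was 49.58%, but 32.49% with DESeq2, 40.42% with scaling within length bins and 5.742% on 40 to 300 bp.

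Replicate numbers are shared by different animals and lines and do not pair them (correlation of deviations -0.056). The replicate block gave 2976 higher and 2565 lower sites, 141 increased windows, and 67 higher and 233 lower neighbourhoods.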
